A study of Mus musculus with 22 samples.

Results

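The adenosine pathway was followed across EMT-6 tumours of mice treated with NHS-muIL12, avelumab or both, through 4 genes: Entpd1, Nt5e, Ada and Adora2a. They were chosen by gene symbol, as the genes for adenosine production, clearance and one of its receptors, and are 4 of 770 genes in the deposited table, all of them among the 750 genes tested. EMT-6 is a mouse mammary carcinoma line, here implanted in the fat pad of the mammary gland of BALB/c mice, and total RNA of the tumour was measured with NanoString probes, which count labelled RNA molecules without amplification. NHS-muIL12 is an antibody that binds the DNA and histones exposed in necrotic tissue, fused to murine interleukin-12. Avelumab is an antibody against PD-L1.

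Each of 22 libraries came from 1 mouse. The 4 control mice carry the title isotype control and received 0 µg of both agents. NHS-muIL12 alone was given once under the skin on day 0, at 2 µg to 4 mice and at 10 µg to 3 mice. Avelumab alone was given into a vein at 200 µg on days 0, 3 and 6 to 3 mice. Both agents were given to 4 mice with the 2 µg dose (combination 2 µg) and to 4 mice with the 10 µg dose (combination 10 µg), and tissue was taken on day 6. All groups share the strain and the transplanted line, which is 1 line and not a set of tumours. The labels give no batch, culture or cage, so p-values measure the spread between these mice only. The epithelial markers Epcam (16.0 to 104 signal), Cdh1 (12.8 to 102) and Muc1 (34.8 to 79.8) were above 0 in all 22 libraries. They were dim, as the lower quartile of signal over genes reached 51.5. Ptprc of leukocytes stood at 115 to 717, so the samples were mixed tissue. Col1a1, a marker of fibroblasts, stood at 3005 to 10586, and which cells expressed it was not tested.

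Signal is a probe count after background subtraction and scaling by the authors. The libraries held 197653 to 572089 counts above background. Behind the values lay 83.9 to 346 such counts for Entpd1, 167 to 534 for Nt5e, 24.9 to 159 for Ada and 0 to 44.0 for Adora2a. In 4 libraries the dim end of the table was lifted: isotype control mice 1 and 2, NHS-muIL12 2 µg mouse 3 and NHS-muIL12 10 µg mouse 3. The lower quartile of signal over genes ran from 3.36 to 51.5 across libraries. This touches Adora2a most, as given below.

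ATP released by stressed or dying cells is degraded outside the cell in steps. The ectoenzyme CD39, encoded by Entpd1, converts ATP and ADP to AMP, and CD73, encoded by Nt5e, converts AMP to adenosine. Adenosine deaminase, encoded by Ada, converts adenosine to inosine inside and outside cells. Adora2a encodes an adenosine receptor that raises cyclic AMP and restrains T cells, natural killer cells and macrophages. In tumours CD39 is found on regulatory T cells, exhausted T cells, macrophages and endothelium, and CD73 on stromal, endothelial and tumour cells.

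In the mouse assembly GRCm38.p6, RefSeq places Entpd1 at chr19:40612366-40741602, Nt5e at chr9:88327609-88372089, Ada at chr2:163726571-163750239 and Adora2a at chr10:75316877-75334792. The promoter sequences of Ada and Nt5e are shown because Ada is the member called below and Nt5e the member with the least variance between groups. Each line holds the 250 bases before the start site, read 5′ to 3′ on the gene's strand, which is the minus strand for Ada (chr2:163750240-163750489) and the plus strand for Nt5e (chr9:88327359-88327608). Capitals mark a match to the gamma-activated sequence, the letters that STAT factors bind downstream of interferon-gamma.
Ada: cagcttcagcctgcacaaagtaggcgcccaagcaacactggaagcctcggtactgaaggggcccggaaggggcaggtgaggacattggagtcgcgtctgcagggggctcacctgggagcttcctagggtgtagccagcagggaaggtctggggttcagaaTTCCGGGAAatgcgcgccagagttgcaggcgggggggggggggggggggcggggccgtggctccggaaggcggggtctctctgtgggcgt
Nt5e: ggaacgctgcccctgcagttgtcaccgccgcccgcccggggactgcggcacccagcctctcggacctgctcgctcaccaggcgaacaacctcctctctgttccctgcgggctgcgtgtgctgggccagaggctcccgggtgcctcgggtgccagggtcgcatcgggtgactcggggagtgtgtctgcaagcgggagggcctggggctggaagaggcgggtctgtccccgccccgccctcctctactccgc
The motif was searched as TTCNNNGAA, which reads the same on both strands. Ada held 1 match, TTCCGGGAA, whose first base lies 90 bases before the start. The Nt5e window and the windows before both listed Entpd1 starts held 0 matches. Among 32851 promoter windows of the same length, 7.02% held the motif. The cyclic AMP response element TGACGTCA, which also reads the same on both strands, had 0 matches in these windows of Ada, Nt5e and Entpd1, and 1.55% of the 32851 windows held it.

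Across the 6 groups Ada was the only member called. It rose with NHS-muIL12 on the scale the authors deposited, in a comparison that called 22.7% of all genes, 20.7% higher. That call was lost with median centring and with quantile normalization. Nt5e overlapped between all groups, and Entpd1 was highest with 10 µg NHS-muIL12 alone without passing the test over all genes. Adora2a was too close to background to compare. Since whole tumours were measured, fewer cells of a type and less RNA per cell cannot be told apart. Group means explained 50.4% of the variance of log2 signal between mice for Ada, 43.9% for Entpd1, 17.1% for Adora2a and 10.2% for Nt5e. The median was 34.5% over the tested genes, leaving out 3 that were at 0 in every mouse.

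**Figure D1:**
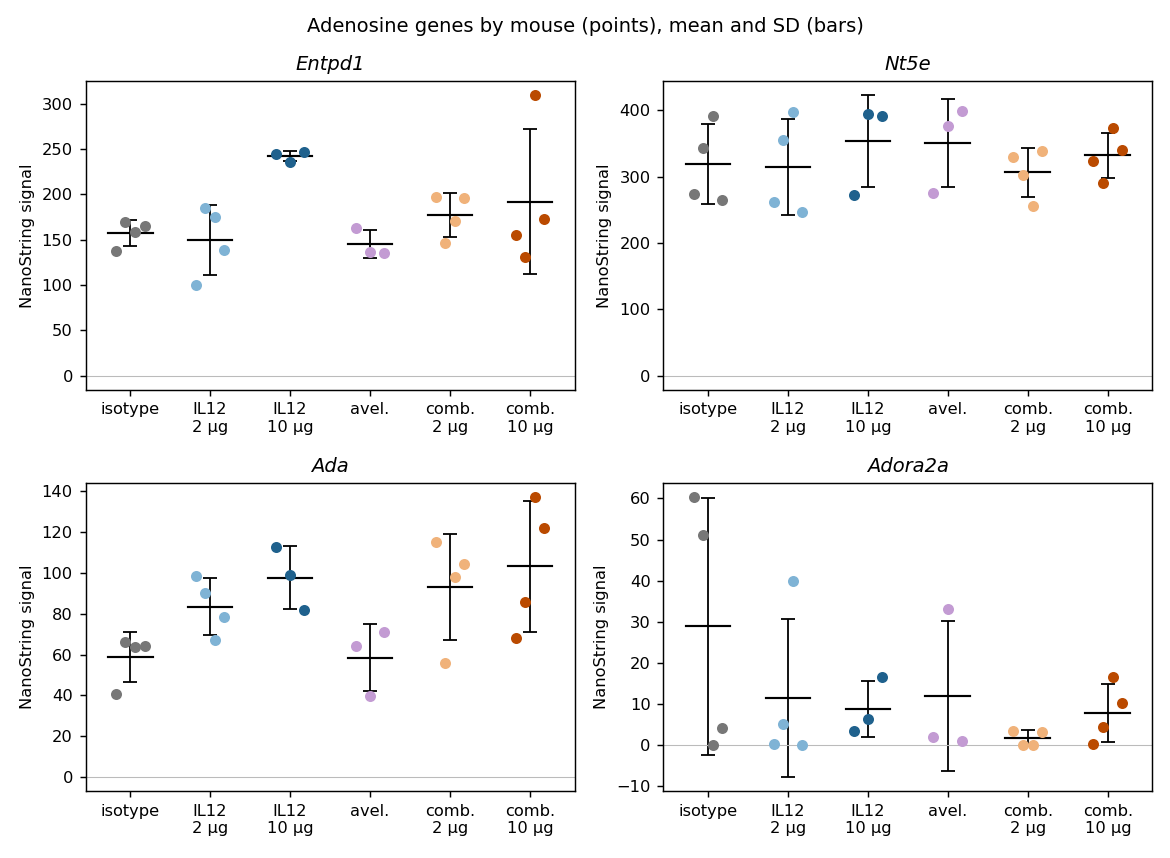
Signal of Entpd1, Nt5e, Ada and Adora2a in each of the 22 mice by treatment group, with points for mice and bars for group means and SD (IL12 is NHS-muIL12, avel. avelumab, comb. the combination). Ada stands at 39.9 to 71.0 in the 7 mice without NHS-muIL12 and at 55.7 to 137 in the 15 mice with it, and Nt5e stays between 247 and 399 throughout.

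Entpd1, the enzyme of the opening step, measured 137, 169.7, 159 and 166 signal in the isotype control mice, with a mean of 158 ± 14.3 (SD, n = 4). With NHS-muIL12 10 µg alone it measured 245, 236 and 246, a mean of 242 ± 5.76 (SD, n = 3). These 3 mice lay above every isotype control mouse, and they are also the tightest of all groups. With NHS-muIL12 2 µg alone the values were 99.6, 185, 175 and 139, a mean of 149.6 ± 38.8 (SD, n = 4), which overlapped the controls on both sides. Avelumab alone gave 163, 136 and 136, a mean of 145 ± 15.5 (SD, n = 3), within the control range or just under it. The combination 2 µg mice measured 197, 146, 171 and 196, a mean of 177 ± 24.4 (SD, n = 4). The combination 10 µg mice measured 155, 131, 309 and 173, a mean of 192 ± 80.2 (SD, n = 4). The combination 10 µg spread rests on mouse 3, whose 309 is the highest Entpd1 signal of the series, while the other 3 lie on both sides of the controls, at 131 to 173.

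Entpd1 with 10 µg NHS-muIL12 alone was 1.54-fold the isotype control on the log2(signal + 1) scale (log2 difference 0.62 ± 0.24, SE, 95% interval 0.11 to 1.13), and the adjusted p by limma over the 750 genes was 0.120. Such a separation was common in this comparison: 20% of genes had all 3 treated mice above all 4 controls, and 10.5% of genes were called in either direction. Against 2 µg without avelumab the difference was 0.73 ± 0.24 (SE) or 1.66-fold, with an adjusted p by limma of 0.140. All 3 mice at 10 µg lay above all 4 mice at 2 µg, a separation found for 15.5% of genes, and no gene was called in that comparison, although 103 of 750 had an unadjusted p under 0.05. The 10 µg difference from isotype control was called in a fit on these 2 groups alone (adjusted p by limma 0.0221) and with sample weights (0.0199). Sample weights called 255 of 750 genes in this comparison. Over all mice with NHS-muIL12 against all without, Entpd1 differed by 0.28 ± 0.15 (SE), with an adjusted p by limma of 0.178, and the sign turned with median centring (-0.026) and quantile normalization (-0.053). With avelumab added to 10 µg, Entpd1 differed from 10 µg alone by -0.41 and the adjusted p by limma was 0.932, so a difference between these 2 groups was not shown. No gene was called there, and 0.932 was the smallest adjusted p by limma of all genes.

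Nt5e, which makes adenosine, measured 274, 343, 392 and 265 signal in the isotype control mice, a mean of 318 ± 60.2 (SD, n = 4). NHS-muIL12 2 µg gave 261, 354, 397 and 247, a mean of 315 ± 72.6 (SD, n = 4). NHS-muIL12 10 µg gave 273, 395 and 392, a mean of 353 ± 69.6 (SD, n = 3). In each of these groups the mice span most of the range of the gene. Avelumab gave 275, 377 and 399, a mean of 350.4 ± 66.0 (SD, n = 3). Combination 2 µg gave 329.6, 302, 255 and 338, a mean of 306 ± 37.5 (SD, n = 4), and combination 10 µg gave 323, 291, 373 and 341, a mean of 332 ± 34.2 (SD, n = 4). All 6 groups overlap, and the highest of the 22 mice stands 1.62 times above the lowest. The largest difference by size in the 15 comparisons was -0.21 on the log2 scale, for the interaction at 10 µg, and none was called. Over all mice with NHS-muIL12 against none it was -0.032, with a 95% interval of -0.29 to 0.23 and an adjusted p by limma of 0.877. With quantile normalization this became -0.35 with an adjusted p by limma of 0.0361, a direction that the other settings did not call. Median centring also lowered it, by the 0.31 between the library medians of these mice, without a call.

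Ada, which clears adenosine and whose loss in humans causes severe immunodeficiency, measured 40.7, 66.3, 63.8 and 64.3 signal in the isotype control mice, a mean of 58.8 ± 12.1 (SD, n = 4). With NHS-muIL12 2 µg it measured 98.5, 90.1, 66.9 and 78.1, a mean of 83.4 ± 13.8 (SD, n = 4). With NHS-muIL12 10 µg it measured 112, 98.7 and 81.9, a mean of 97.6 ± 15.2 (SD, n = 3). Every mouse of both NHS-muIL12 groups lay above every control mouse, as was the case for 5.73% of genes at 2 µg and 20% at 10 µg. At 2 µg the margin was narrow, with the lowest mouse at 66.9 and the highest control at 66.3. In these libraries 1 count was worth 1.28 and 1.16 signal. Avelumab alone gave 64.1, 39.9 and 71.0, a mean of 58.4 ± 16.3 (SD, n = 3), covering the control range and a little beyond it at both ends. The combination 2 µg mice measured 115, 55.7, 97.7 and 104, a mean of 93.2 ± 25.9 (SD, n = 4), so 3 of 4 stood above the controls and mouse 2 among them. The combination 10 µg mice measured 68.0, 85.5, 137 and 122, a mean of 103 ± 31.8 (SD, n = 4). All 4 combination 10 µg mice lay above the highest control, the lowest of them narrowly, at 68.0 against 66.3.

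Taking all mice with NHS-muIL12 against all without, with equal weight per group, Ada was higher by 0.67 ± 0.17 on the log2 scale (SE, 95% interval 0.31 to 1.04), or 1.60-fold. The adjusted p by limma was 0.00759, and Ada ranked 108 of 750 genes by p-value. It was 1 of 4 members called, and 22.7% of all genes were called in this comparison, 20.7% higher. Of the 15 mice with NHS-muIL12, 12 stood above the highest of the 7 mice without it, and 14 stood above the median of those 7. The call held in all 22 fits that left out 1 mouse, with log2 differences of 0.55 to 0.75. It did not hold where the libraries were forced to a common median (0.37, adjusted p by limma 0.143) or to a common distribution (0.51, adjusted p by limma 0.153). The library medians themselves differed by 0.31 on the log2 scale between the mice with and without NHS-muIL12.

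Combination 10 µg against isotype control was the single pairwise comparison in which a member passed the test. Ada was 1.71-fold higher there (log2 difference 0.77 ± 0.26, SE, 95% interval 0.22 to 1.33), with an adjusted p by limma of 0.0476. The comparison called 19.7% of genes, 17.2% higher, and 16.9% of genes had all 4 treated mice above all 4 controls. The call is borderline: of 8 fits that left out 1 of those mice, it held in 2, those without combination 10 µg mouse 1 (0.95) or isotype control mouse 3 (0.82). Without isotype control mouse 1 the difference was 0.61, the lowest of the 8, with an adjusted p by limma of 0.161. Other settings in which the call was lost include median centring, quantile normalization, a fit on these 2 groups alone and leaving out the 4 libraries with a lifted dim end, with adjusted p by limma of 0.0847 to 0.289 in these 4. Ada was 0.51 ± 0.26 higher with NHS-muIL12 2 µg alone (SE, adjusted p by limma 0.662), where 0% of genes were called (59 of 750 at an unadjusted p under 0.05). It was 0.74 ± 0.29 higher with 10 µg alone (adjusted p by limma 0.117, with 10.5% of genes called) and 0.63 ± 0.26 higher with combination 2 µg (adjusted p by limma 0.123, with 9.47% of genes called). None of these 3 passed. With sample weights all 3 did, a setting that called 90, 255 and 308 of 750 genes in these comparisons, beside 0, 79 and 71 as reported.

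**Figure D2:**
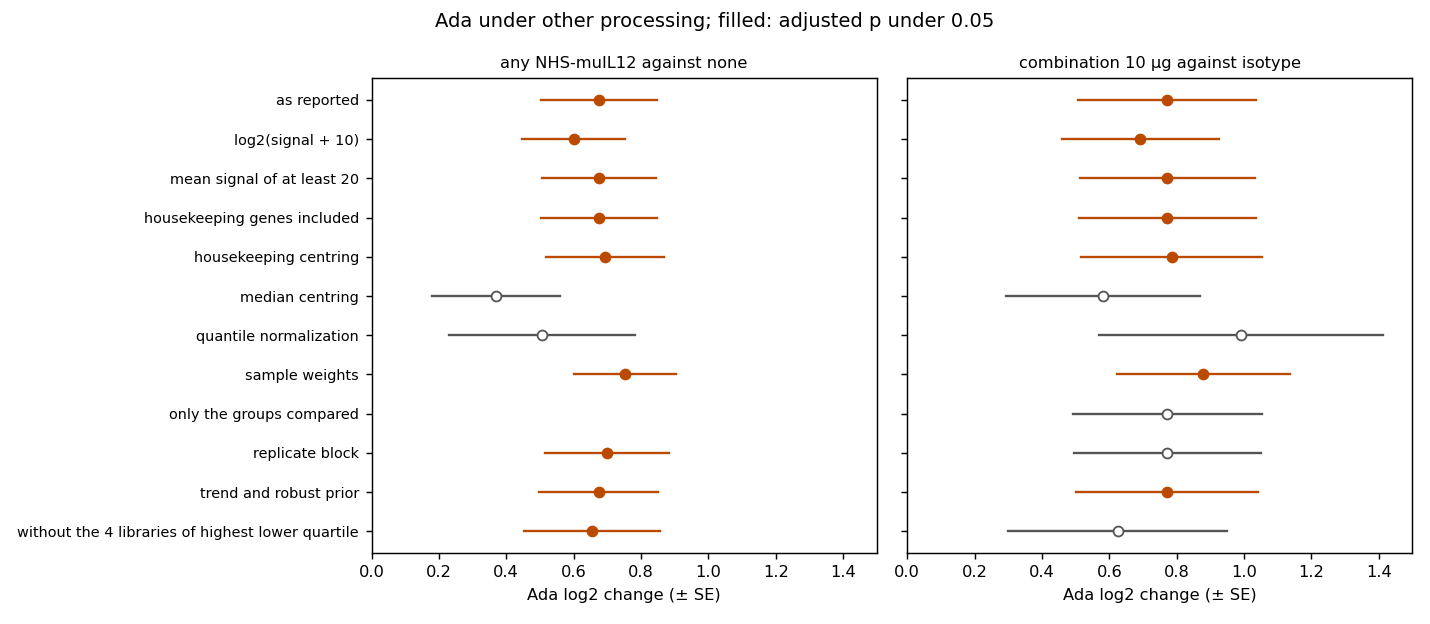
Log2 difference of Ada with each processing setting for any NHS-muIL12 against none and for combination 10 µg against isotype control, with lines for ± SE and filled points where the adjusted p by limma was under 0.05. The difference stays above 0 in all settings drawn, and for any NHS-muIL12 it is lowest with median centring (0.37).

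No difference of Ada by dose or by added avelumab passed the test. Between 10 µg and 2 µg the difference was 0.23 without avelumab (95% interval -0.37 to 0.83) and 0.14 with it (95% interval -0.42 to 0.70). Avelumab alone against isotype control gave -0.025, with an adjusted p by limma of 0.991 and no gene called (38 of 750 at an unadjusted p under 0.05). Averaged over the doses, Ada with avelumab differed by 0.044 (95% interval -0.29 to 0.38) with an adjusted p by limma of 0.894. The interactions, which ask whether the effect of NHS-muIL12 differed with avelumab, were 0.15 at 2 µg and 0.061 at 10 µg. With combination 10 µg against avelumab alone Ada was 0.80 higher (adjusted p by limma 0.067, beside 16.9% of genes called), and with combination 2 µg against avelumab alone 0.66 higher (adjusted p by limma 0.156, beside 10.8% of genes called). Ordering the 6 group means of each member and taking the gap between neighbours, 1 of the 20 gaps exceeded the larger SD of its pair: the step of Ada from isotype control to NHS-muIL12 2 µg, 24.6 signal.

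**Figure D3:**
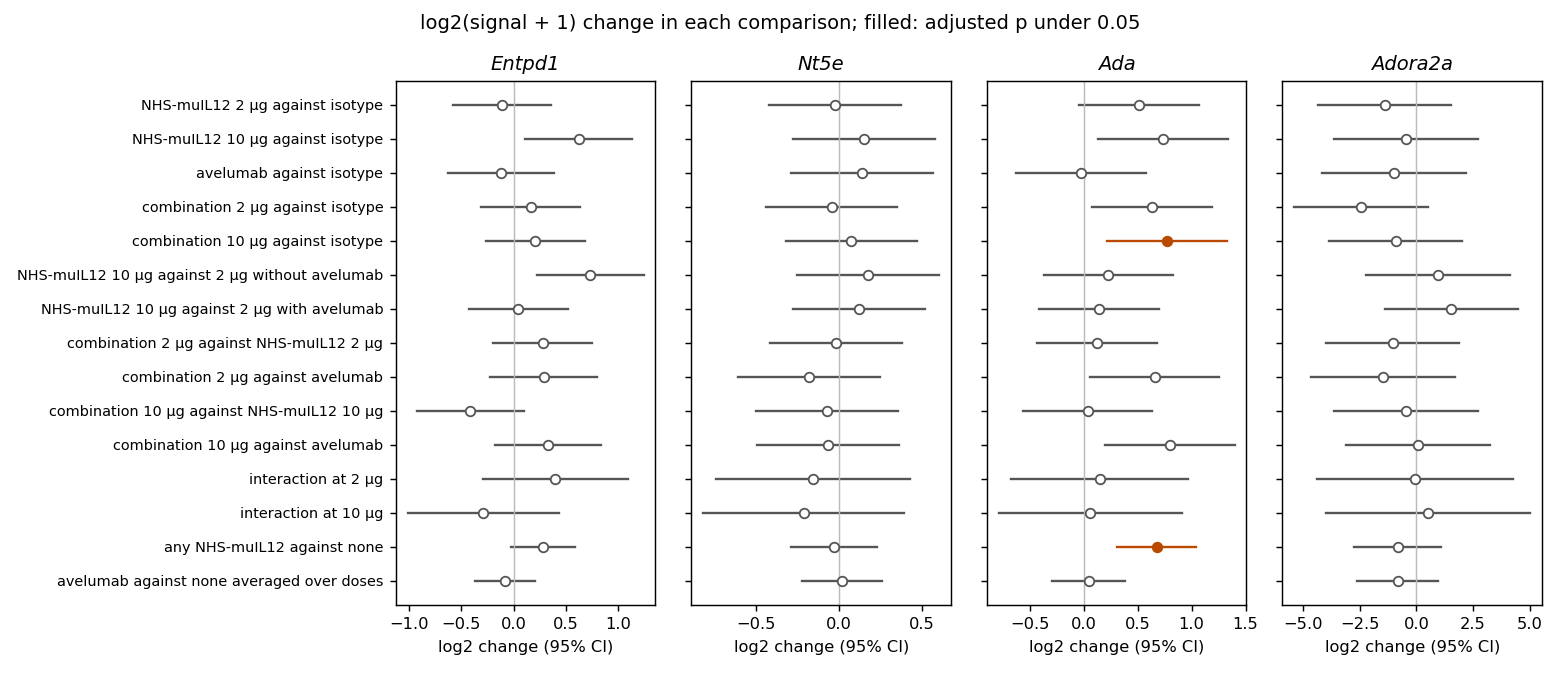
Log2 difference (points) with its 95% interval (lines) for each member in 15 comparisons, on the log2(signal + 1) scale, with filled points where the adjusted p by limma was under 0.05 and an axis of its own for each gene. The filled points are Ada with any NHS-muIL12 (0.31 to 1.04) and in combination 10 µg against isotype control (0.22 to 1.33), all Nt5e intervals cover 0, and Adora2a has the widest intervals.

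Adora2a, the receptor, was near the floor of the assay. The isotype control mice measured 60.4, 51.2, 0 and 4.15 signal. NHS-muIL12 2 µg gave 0.338, 5.08, 39.96 and 0.0022, and NHS-muIL12 10 µg gave 3.43, 6.30 and 16.5. In isotype control and at 2 µg the mice of 1 group run from about 0 to among the highest values of the gene. Avelumab gave 1.97, 33.0 and 0.870, combination 2 µg gave 3.34, 0, 0 and 3.26, and combination 10 µg gave 0.245, 4.399, 16.4 and 10.3. The gene was listed at 0 in 3 of 22 mice. The 4 libraries with a lifted dim end measured 16.5 to 60.4, while the other 18 measured 0 to 33.0 with a median of 3.30, and 17 of those 18 were under 20. Across the 22 mice the Pearson correlation of Adora2a, on the log2 scale, with the lower quartile of its library was 0.85 (Spearman 0.83, within groups 0.89, and 0.79 without the 2 farthest libraries). The part of the library in the differences of Adora2a between groups was not tested.

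No comparison called Adora2a. The largest difference was -2.45 in combination 2 µg against isotype control, with an adjusted p by limma of 0.253. Over all mice with NHS-muIL12 against none it was -0.81, with an adjusted p by limma of 0.557. Combination 2 µg against isotype control was called with sample weights (-3.64, adjusted p by limma 0.0107), and without the 4 libraries with a lifted dim end the sign of 7 Adora2a differences turned. At this depth a change of Adora2a was not detectable, which does not show that it is absent.

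The balance of production and clearance was followed as the log2 difference of 2 members within a mouse, which is nearly free of the library's scale factor. Its size depends on the probes and was compared only between groups, with no test. Nt5e minus Ada had a mean of 2.42 ± 0.30 (SD, n = 4) in isotype control and 2.59 ± 0.57 (SD, n = 3) with avelumab. It was 1.89 ± 0.50 and 1.84 ± 0.50 with NHS-muIL12 at 2 and 10 µg (SD, n = 4 and 3), and 1.75 ± 0.46 and 1.73 ± 0.37 in the combinations (SD, n = 4 each). All 4 groups with NHS-muIL12 thus had a lower mean than both groups without it. The mice overlapped: isotype control ran from 2.03 to 2.72, and the highest mouse of each group with NHS-muIL12 stood at 2.23 to 2.55. Entpd1 minus Ada went from 1.43 ± 0.20 in isotype control to 0.81 ± 0.58 with 2 µg (SD, n = 4 each), but stood at 1.31 ± 0.24 (SD, n = 3) with 10 µg, where both genes were high. It was 0.96 ± 0.28 and 0.86 ± 0.36 in the 2 combinations (SD, n = 4 each) and 1.33 ± 0.41 with avelumab (SD, n = 3). Entpd1 minus Nt5e, the balance of both producing enzymes, had its highest mean of -0.52 with 10 µg NHS-muIL12 alone and its lowest of -1.25 with avelumab, and the groups overlapped in part.

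**Figure D4:**
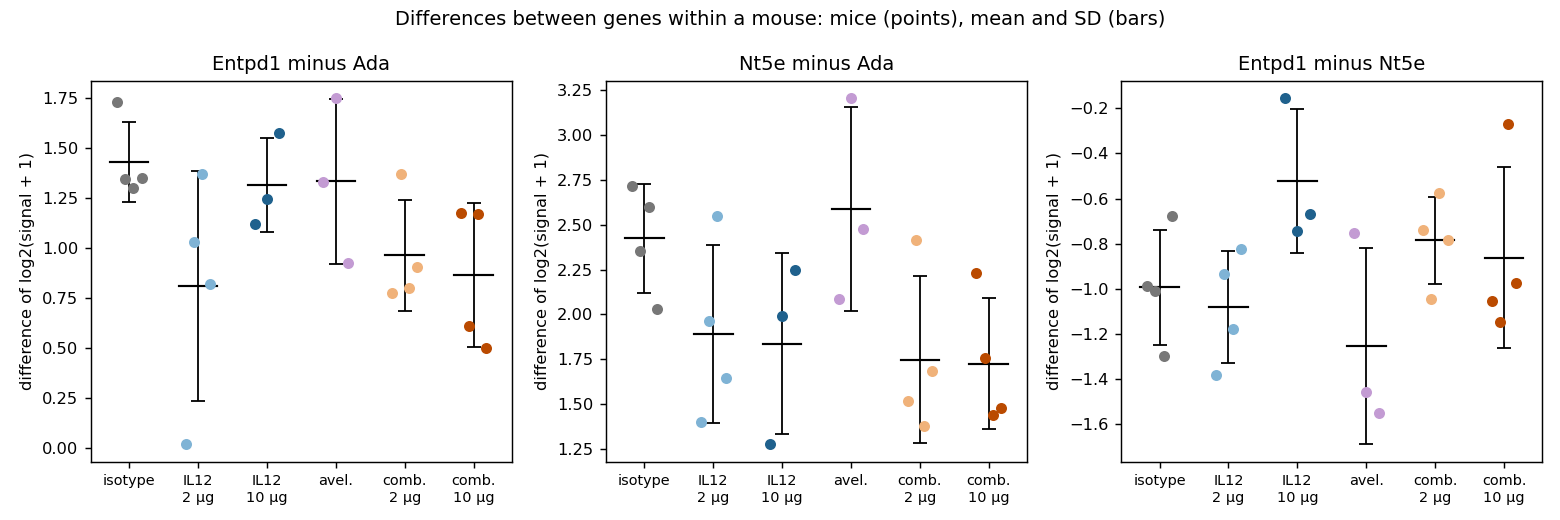
Log2 difference between 2 members within each mouse, by treatment group (IL12 is NHS-muIL12, avel. avelumab, comb. the combination), with points for mice and bars for means and SD. Nt5e minus Ada, in the middle, has lower means in the groups with NHS-muIL12 (1.73 to 1.89) than in isotype control (2.42) and avelumab (2.59), and the mice overlap.

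The 4 genes did not move as 1 unit across mice. Entpd1 and Ada had a Pearson correlation of log2 signal of 0.53 over the 22 mice (Spearman 0.58, 0.44 within groups), and Entpd1 and Nt5e 0.39 (Spearman 0.28, 0.42 within groups). Nt5e and Ada stood at 0.017 (Spearman -0.031, 0.032 within groups). Adora2a stood at 0.29 with Entpd1 (Spearman 0.29, 0.38 within groups) and at 0.37 with Nt5e (Spearman 0.38, 0.36 within groups). Adora2a and Ada stood at -0.21 (Spearman -0.013, -0.13 within groups), which became 0.13 without the 4 libraries with a lifted dim end. The points share library scale and tumour composition, and these values are a description.

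Among the 447 genes whose mean signal reached 50, genes among the most like Ada by Pearson correlation of log2 signal over the 22 mice were Ptprc (0.86), the leukocyte phosphatase CD45, and Cfb (0.84), complement factor B. Within groups they were Ccl6 (0.82) and Ccl7 (0.79), both chemokines, and Cd97 (0.78), an adhesion receptor. Entpd1 was most like Cd47 (0.81), which inhibits phagocytosis, Csf2rb (0.80), a receptor chain of myeloid cytokines, and Lcn2 (0.75), an iron-binding protein of neutrophils. Nt5e had weaker neighbours, with Atg12 at 0.60, Jak2 at 0.55 and Ccrl2 at 0.53. Among the genes most like Adora2a were Pla2g6 (0.82) and Csf3r (0.80). The median correlation with all genes was 0.31 for Entpd1 and Ada, 0.14 for Nt5e and 0.040 for Adora2a.

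Macrophages are a known site of these enzymes, and some of their markers were called higher where Ada was. Genes of natural killer and T cells followed this less evenly. The macrophage list held 10 symbols, of which Adgre1 and Emr1 name the same gene, and 9 genes were measured. Of these, 5 were higher in combination 10 µg against isotype control (Cd68, Emr1, Msr1, Itgam and Cd14). The list median was 0.80 on the log2 scale beside 0.052 for all genes, 17.2% of which were called higher. For any NHS-muIL12 4 were higher (Cd68, Emr1, Msr1 and Itgam), with a median of 0.56 beside 0.073 and 20.7% of all genes called higher. Their summed signal ran from 2146 to 4415 in isotype control, 1969 to 4045 with avelumab, 3652 to 4183 and 4207 to 4986 with NHS-muIL12 at 2 and 10 µg, and 3986 to 4879 and 4380 to 8762 in the combinations. Across the 22 mice Ada correlated with that sum, both as log2, at a Pearson value of 0.78 (Spearman 0.78, 0.61 within groups, 0.65 without the 2 farthest mice). Entpd1 did so at 0.50 (Spearman 0.49), which fell to 0.24 without the 2 farthest mice. With the log2 total signal of the library, the Pearson value was 0.62 for Ada and 0.56 for Entpd1. Of 5 natural killer cell genes, 3 were higher with any NHS-muIL12 (Ncr1, Klrd1 and Klrk1, list median 0.70) and 1 in combination 10 µg (Klrk1, list median 0.13). Their summed signal ran from 45.0 to 212 in isotype control, 49.3 to 84.9 with avelumab, 80.2 to 241 and 159.9 to 263 with NHS-muIL12 at 2 and 10 µg, and 85.1 to 189 and 105 to 402 in the combinations. The mean of Ncr1 was low with avelumab alone (9.56), beside 30.2 in isotype control and 22.7 to 34.3 in the groups with NHS-muIL12. Klrb1c of the same list went the other way, from a mean of 36.8 in isotype control to 0.217 to 17.4 in the groups with NHS-muIL12. This gene was near the floor: isotype control mice ran from 0 to 77.9, and 3 of 4 combination 2 µg mice were at 0. Of 8 T cell genes measured, Cd3g was higher with any NHS-muIL12 (list median 0.53) and 0 were called in combination 10 µg, where 0 also had an unadjusted p under 0.05 and the list median was -0.59. Against isotype control the T cell list median was -0.11 and 0.13 with NHS-muIL12 at 2 and 10 µg and -0.25 in combination 2 µg. With avelumab alone, which is among the mice without NHS-muIL12, it was -1.33. Several of these genes were dim, with Cd8b1 at 0 in 1 of 4 isotype control mice and 2 of 3 avelumab mice. Isotype control mice 1 and 2 are libraries with a lifted dim end, whose part in these medians was not tested. The part of macrophages, natural killer cells, T cells or library signal in the rise of Ada was not tested. Foxp3, the defining factor of regulatory T cells, was listed at 0 in 14 of 22 mice and reached 5.92 at most. Of 8 regulatory T cell genes Il2ra alone was called, higher in combination 2 µg against isotype control, beside 9.47% of all genes called.

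**Figure D5:**
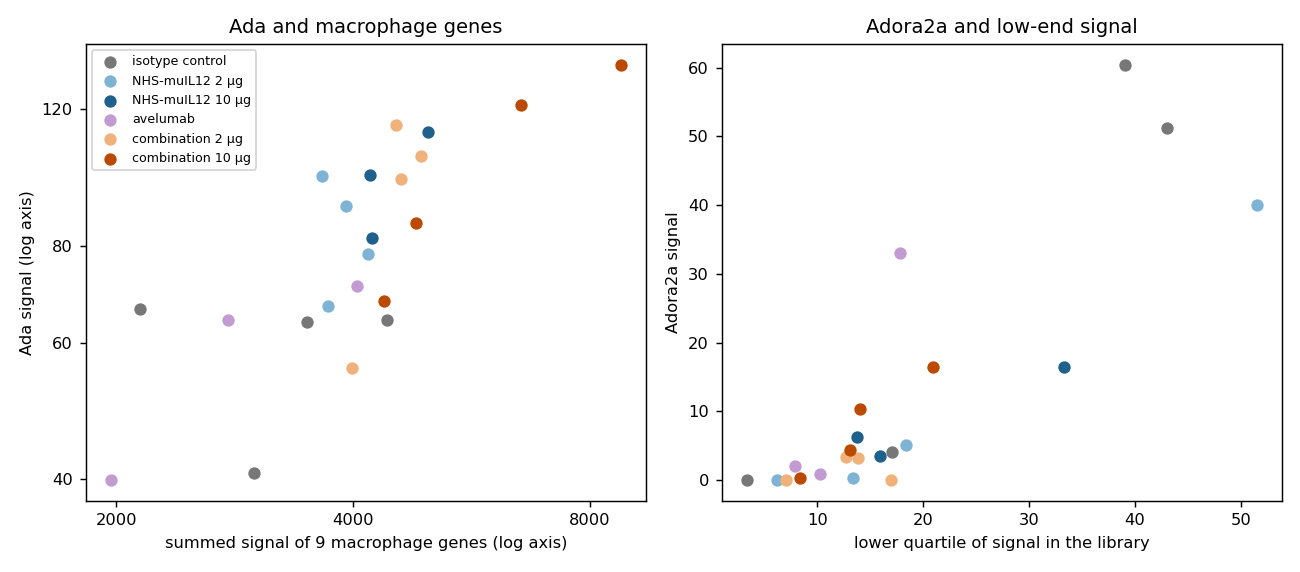
Left, Ada signal against the summed signal of 9 macrophage genes, both on log axes, and right, Adora2a signal against the lower quartile of signal in its library, with 1 point per mouse coloured by group. Ada follows the sum (Pearson 0.78), and Adora2a is high where the lower quartile is high (0.85).

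Of 31 genes listed for extracellular ATP and purine handling 7 were measured, the 4 members and Cd38, Bst1 and Dpp4. In combination 10 µg against isotype control 3 of 7 were higher and 0 lower (Ada, Cd38 and Bst1), with a median of 0.20 beside 0.052 over all genes and 17.2% of all genes called higher. The same 3 were higher with any NHS-muIL12 (median 0.50 beside 0.073, with 20.7% of all genes called higher). Cd38 alone was higher with 10 µg NHS-muIL12 (median 0.61 beside 0.10, with 10.5% of all genes called). Cd38 encodes an ectoenzyme that consumes NAD and gives a further route towards adenosine. Its mean was 107 ± 17.5 signal in isotype control and 69.4 ± 32.9 with avelumab, against 139 ± 29.2 and 295 ± 41.7 with NHS-muIL12 at 2 and 10 µg and 211 ± 61.9 and 369 ± 289 in the combinations (SD, n = 4 in each group but 3 with avelumab and 3 with 10 µg). Cd38 rose by 1.44 ± 0.26 on the log2 scale (SE) with any NHS-muIL12, with an adjusted p by limma of 6.58e-04, and by 1.46 ± 0.43 with 10 µg alone, with an adjusted p by limma of 0.0367. Bst1, an ectoenzyme related to Cd38, rose by 0.50 ± 0.15 (SE) with any NHS-muIL12 and by 0.87 ± 0.23 in combination 10 µg, with adjusted p by limma of 0.0185 and 0.0139. Dpp4, CD26, which binds adenosine deaminase to the cell surface in humans, had a mean of 33.1 ± 12.05 signal in isotype control (SD, n = 4) and 9.60 ± 6.08 with avelumab (SD, n = 3), a difference of -1.82 ± 0.59 (SE) that did not pass (adjusted p by limma 0.715).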

How the data were processed

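Values are the deposited NanoString signal of the series' table, on a linear scale. The values lie on equally spaced steps that stop at 0, so they were read as probe counts that the authors background-subtracted and then scaled per library, at 0.664 to 1.68 signal per count. The labels do not name the software or either method, and no count model was fitted. Tests used log2(signal + 1) in limma 3.58.1 (R 4.3.3), with 1 mean per group over 22 mice, 16 residual degrees of freedom and two-sided tests. Benjamini-Hochberg adjustment ran over 750 genes (770 less 20 housekeeping genes) within each of 15 comparisons, with a threshold of 0.05. Genes named beyond the members are from the 3 most correlated per member, of which some are not reported here, and from the measured genes of fixed lists. The members and lists were chosen with earlier results of these data known. Samples with the same replicate number did not deviate together (median correlation -0.042 over 50 pairs). The limma script was tested on simulated data. Promoters are from RefSeq's GRCm38.p6 table, matched by symbol for Entpd1, Nt5e and Ada. Alternatives were the pseudocount, a brightness filter, centring on medians or housekeeping genes, quantile normalization, testing the housekeeping genes too, sample weights, a trended robust prior, the replicate block, fits on only the groups compared, and leaving out each mouse or the 4 libraries with a lifted dim end.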

Additional observations from a re-analysis of the deposited data

Results flagged for a closer look

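Ada in isotype control mouse 1 stood apart from its group. It measured 40.7 signal, beside 63.8 to 66.3 in the other 3 control mice, and its gap to the nearest of them was 0.923 of the group's range, above Dixon's critical value for sets of 4 samples. In all 16 sets of 4 mice were tested, 4 genes in each of 4 groups, and chance flags about 1 in 20. The same library is 1 of the 4 with a lifted dim end. Without this mouse, Ada in combination 10 µg against isotype control differed by 0.61 with an adjusted p by limma of 0.161.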

How the results depend on the processing

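Values are log2 differences, N is NHS-muIL12 and C the combination, with the dose in µg, and I is isotype control, A avelumab, "any N" all mice with NHS-muIL12 against none and "mean A" avelumab averaged over doses. Depth limits Adora2a most, and 3 to 4 mice per group limit all members. Apart from fits that left out 1 mouse, 560 values kept their direction and their side of the threshold, 61 changed sign, 9 gained and 7 lost a call. The causes of the changes below were not tested.

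With median centring, Ada was no longer called for any N (0.37, adjusted p by limma 0.143) and C10-I (0.58, adjusted p by limma 0.164). In fits on only the groups compared, Ada was no longer called for C10-I (0.77, adjusted p by limma 0.146). With quantile normalization, Ada was no longer called for any N (0.51, adjusted p by limma 0.153) and C10-I (0.99, adjusted p by limma 0.0847). With the replicate block, Ada was no longer called for C10-I (0.77, adjusted p by limma 0.0662). Without the 4 libraries with a lifted dim end, Ada was no longer called for C10-I (0.62, adjusted p by limma 0.289). Among genes whose mean signal reached 20, calls were gained for Ada C10-A (0.80, adjusted p by limma 0.0456). In fits on only the groups compared, calls were gained for Entpd1 N10-I (0.62, adjusted p by limma 0.0221). With quantile normalization, calls were gained for Nt5e any N (-0.35, adjusted p by limma 0.0361). With sample weights, calls were gained for Ada C2-A (0.68, adjusted p by limma 0.0354), Ada C2-I (0.90, adjusted p by limma 0.00539), Ada N10-I (0.93, adjusted p by limma 0.0077), Ada N2-I (0.73, adjusted p by limma 0.049), Adora2a C2-I (-3.64, adjusted p by limma 0.0107) and Entpd1 N10-I (0.65, adjusted p by limma 0.0199).

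The sign changed in 61 of the values under an alternative, and none of these was past the threshold in either setting. With log2(signal + 10), Adora2a had -0.082 for C10-A and 0.12 for the 2 µg interaction. With median centring, Ada had 0.27 for A-I, -0.17 for the 10 µg interaction and -0.22 for the 2 µg interaction. With median centring, Adora2a had -0.41 for C10-A. With median centring, Entpd1 had -0.026 for any N, 0.17 for A-I, 0.0061 for mean A, -0.16 for C10-A, -0.14 for C2-A and -0.017 for C10-C2. With median centring, Nt5e had -0.12 for C10-I, -0.023 for N10-N2 and -0.11 for N10-I. With quantile normalization, Ada had 0.66 for A-I, -0.50 for the 10 µg interaction and -0.43 for the 2 µg interaction. With quantile normalization, Adora2a had 0.17 for A-I, 0.073 for mean A, -0.093 for C10-A, 0.081 for C10-I and 0.67 for C10-N10. With quantile normalization, Entpd1 had -0.053 for any N, -0.14 for C10-A, -0.15 for C10-I, -0.082 for C2-A, -0.091 for C2-I and -0.057 for C10-C2. With quantile normalization, Nt5e had -0.028 for mean A, -0.35 for C10-I, -0.053 for C10-C2, -0.093 for N10-N2 and -0.24 for N10-I. With the replicate block, Ada had -0.025 for C10-N10. With the replicate block, Adora2a had 0.015 for the 2 µg interaction. With sample weights, Ada had 0.21 for A-I, -0.052 for C10-N10, -0.27 for the 10 µg interaction, -0.052 for the 2 µg interaction and -0.017 for C10-C2. With sample weights, Adora2a had 2.00 for the 2 µg interaction. With sample weights, Entpd1 had -0.16 for C10-C2 and 0.097 for N2-I. With sample weights, Nt5e had 0.083 for any N, -0.042 for mean A, 0.053 for C10-A, 0.022 for C2-I and 0.14 for N2-I. Without the 4 libraries with a lifted dim end, Ada had -0.078 for mean A and -0.084 for C10-N10. Without the 4 libraries with a lifted dim end, Adora2a had 1.34 for A-I, 0.49 for mean A, 1.41 for C10-I, 0.085 for C10-N10, 0.043 for C2-N2, -1.25 for the 10 µg interaction and 1.33 for N10-I. Without the 4 libraries with a lifted dim end, Nt5e had 0.0095 for C10-N10, 0.10 for C2-N2 and 1.6e-05 for the 2 µg interaction.

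Leaving out each mouse in turn moved the following values across 0 or across the threshold. Ada ran from -0.19 to 0.22 for A-I, -0.010 to 0.13 for mean A, 0.55 to 0.98 for C10-A, 0.61 to 0.95 for C10-I, -0.12 to 0.22 for C10-N10, 0.41 to 0.88 for C2-A, 0.47 to 0.86 for C2-I, -0.19 to 0.24 for the 10 µg interaction, -0.10 to 0.37 for the 2 µg interaction and -0.086 to 0.32 for C10-C2. Adora2a ran from -0.74 to 1.36 for C10-A, -0.97 to 0.30 for C10-N10, -1.74 to 0.043 for C2-N2, -0.29 to 1.81 for the 10 µg interaction, -0.88 to 1.22 for the 2 µg interaction and -1.62 to 0.36 for N10-I. Entpd1 ran from -0.051 to 0.36 for C10-I, -0.21 to 0.20 for C10-C2 and -0.23 to 0.068 for N2-I. Nt5e ran from -0.11 to 0.021 for any N, -0.044 to 0.069 for mean A, -0.23 to 0.038 for C10-A, -0.0088 to 0.18 for C10-I, -0.25 to 0.015 for C10-N10, -0.13 to 0.060 for C2-I, -0.13 to 0.10 for C2-N2 and -0.15 to 0.081 for N2-I.

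Over all alternatives, counts of genes ranged as given in brackets: N10-I called 79 genes (0 to 255), C2-I called 71 genes (0 to 308), C10-I called 148 genes (0 to 269), C2-A called 81 genes (0 to 217), C10-A called 127 genes (0 to 160) and any N called 170 genes (135 to 310). Sample weights gave the highest count in each of these 6.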

Other observations

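Most listed genes around the pathway did not pass the test. Of 17 cyclic AMP and hypoxia genes listed 8 were measured, and limma called 0 of 8 with any NHS-muIL12 (2 at an unadjusted p under 0.05) or in combination 10 µg against isotype control (0 at an unadjusted p under 0.05). Of all genes, 22.7% and 19.7% were called in these 2 comparisons. The median log2 difference of the 8 genes was -0.071 with any NHS-muIL12, beside 0.073 over all genes. Hif1a, an oxygen-regulated transcription factor, differed by -0.077 ± 0.069 (SE, adjusted p by limma 0.457). Of 8 genes listed as partners of adenosine deaminase or as immunodeficiency genes known beside it, 7 were measured. In that list Ada and Il2rg, the common cytokine receptor chain, were called higher with any NHS-muIL12, beside 20.7% of all genes. Il2rg rose by 1.89 ± 0.51 (SE, adjusted p by limma 0.0110). Il2rg was dim, with group means of 5.44 to 38.5 signal.

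Endothelial and stromal cells are known to carry the ectoenzymes. Of 7 endothelial genes 0 were higher and 1 was lower with any NHS-muIL12, Cdh5 (VE-cadherin), by -0.54 ± 0.16 (SE, adjusted p by limma 0.0218). Of all genes, 22.7% were called in that comparison, 20.7% higher. Cdh5 fell by 0.99 in combination 10 µg against isotype control (adjusted p by limma 0.0116), from 260.1 ± 82.0 to 132 ± 42.3 signal (SD, n = 4 each). Of 6 stromal genes 1 was lower there, Cspg4, a pericyte proteoglycan, by -2.04 ± 0.67 (SE, adjusted p by limma 0.0408). Combination 10 µg against isotype control called 19.7% of all genes, 17.2% higher.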
